A study of Mus musculus with 26 samples.

Results

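The effect of losing Ppp2r2a was followed in the left ventricle of 13 male mice, taken by the sex and genotype in their labels from a series of 26. The 7 knockout males (cKO) had the genotype aMHC-CreTg/0-Ppp2r2aL/L, in which Cre recombinase, driven by the heart muscle promoter αMHC, cuts both loxP-flanked Ppp2r2a alleles in cardiomyocytes. The 6 control males (Ctrl) carried the same flanked alleles and no Cre (aMHC-Cre0/0-Ppp2r2aL/L). Every mouse, control or knockout, was 12 to 16 weeks old and had received saline from an implanted pump for 2 weeks. The flanked line was made in C57BL6/N and the Cre line in FVB mice, so that the background is mixed per the series' design text, while the strain label of the samples names C57BL/6N alone. Removal of Ppp2r2a cannot be told apart from Cre itself or from FVB sequence that travels with the transgene. The other 13 samples are females of the same genotypes, 6 Ctrl and 7 cKO, and are used here only to set the effect beside that in males. RNA was read as poly-A messenger RNA, and values are given as CPM, the counts of a gene relative to the scaled total of its library.

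Protein phosphatase 2A (PP2A) is an enzyme of a scaffold, a catalytic and a regulatory subunit, and the regulatory subunit chooses which phosphorylated proteins it acts on. Ppp2r2a encodes B55α, the main member of the B55 family of these subunits in many tissues, which is best known for reversing phosphorylation at the end of mitosis, once the hold that phosphorylated ENSA and ARPP19 have on it up to metaphase is released. In heart muscle, PP2A acts on proteins of contraction, calcium handling and signalling to the nucleus. The adult ventricle draws most of its energy from the oxidation of fatty acids in mitochondria, and its muscle cells lie in a matrix laid down mainly by fibroblasts.

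Libraries of the 13 males held 17372414 to 30867399 counts, and 15.05% to 19.25% of counts came from genes of mitochondrial DNA. Heart muscle markers summed to 85244 to 107191 CPM and atrial markers to 27.4 to 37.8 CPM over these libraries, which are labelled as left ventricle. The second principal component, with 12.5% of the variance, separated the genotypes, and the first, with 14.3%, did not.

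Ppp2r2a itself is the check of the labels. It was read at 24.1, 42.2 and 47.7 CPM in the Ctrl males (lowest, median and highest) and at 11.8, 13.9 and 16.2 CPM in the cKO males. The groups did not overlap, but the Ctrl males fell apart into 4 mice between 41.9 and 47.7 CPM and 2 mice, numbered 3 and 6, at 24.9 and 24.1 CPM. These 2 are Ctrl by their labels, and whether their genotype differs from that of the other Ctrl males was not tested. Group means were 37.4 ± 10.2 in Ctrl and 14.1 ± 1.81 CPM in cKO (SD, n = 6 and 7), which is a fall by 1.40 on the log2 scale with an SE of 0.14 and an edgeR adjusted p of 1.86e-06. The cKO mean was 37.8% of the Ctrl mean, and 32.3% of it without Ctrl males 3 and 6. An exact two-sided permutation test over the 1716 ways to split the mice gave p = 0.00117, the smallest this test can give here. Since the tissue holds other cells that keep the gene, the level that remains does not measure the cut in cardiomyocytes.

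Across the transcriptome few genes passed the threshold used here, and most of their changes were small in size. Of the lower calls, 15 are in 6 lists of nuclear genes of mitochondria, and of the higher calls 5 are in 4 lists of the matrix and of TGF-β signalling. Of 15357 genes tested, 68 passed an adjusted p under 0.05 and are called here (0.443%), 28 of them higher (0.182%) and 40 lower (0.26%) in cKO. The median log2 fold change was 0.32 over the higher genes and -0.23 over the lower ones, against 0.00 over all genes tested. A change of at least 0.5 on the log2 scale was reached by 7 higher and 2 lower genes. In 17 of the 28 higher and 29 of the 40 lower genes no cKO value lay within the Ctrl range, where 0.41% of all genes tested had all cKO above all Ctrl males and 0.873% all below, 1.28% in sum. The threshold fell in a dense part of the ranking, with Rtn4 (log2 fold change 0.25) and Slc25a4 (-0.18) just inside at an adjusted p of 0.0487 or less and Bckdha (-0.24) and Il11ra1 (-0.16) just outside at 0.0505. Without an adjustment, 2027 of the 15357 genes had a p under 0.05 in edgeR, 938 higher and 1089 lower, where about 1 in 20 would if no gene changed. The number called is therefore not a count of all genes that changed.

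**Figure D1:**
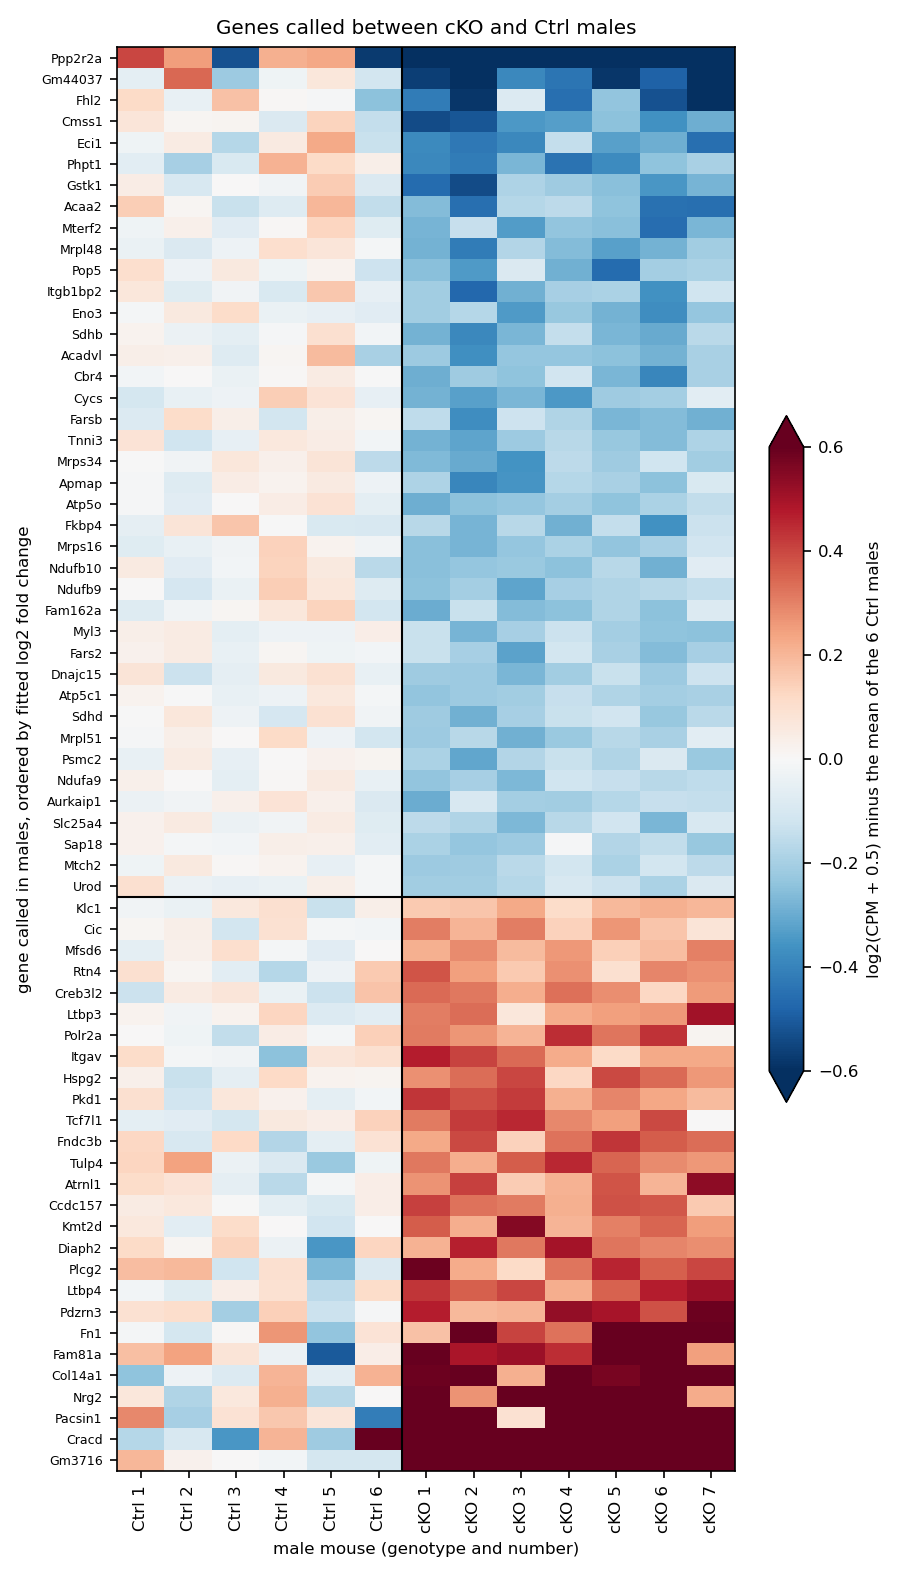
Each row is 1 of 67 called genes, ordered by its fitted log2 fold change with the lowest at the top, and each column is 1 male mouse (6 Ctrl, then 7 cKO). Colour is log2(CPM + 0.5) minus the mean of the Ctrl males, cut at 0.6 in either direction, and Ctrl males 3 and 6 are the 2 blue cells among the Ctrl columns of Ppp2r2a.

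How many genes were called turned on single mice. With each mouse left out in turn, 4 to 79 genes were called. The count was 4 without Ctrl 5, 6 without cKO 5, 7 without cKO 6, 11 without cKO 2, 20 without cKO 1, 23 without Ctrl 4, 30 without Ctrl 2, 30 without Ctrl 3 and 37 without Ctrl 1. It was 52 without cKO 3, 54 without cKO 4, 63 without cKO 7 and 79 without Ctrl 6. Without both Ctrl males of low Ppp2r2a, 7 genes were called, namely Ppp2r2a, Gm3716, Eci1, Mrpl48, Sdhb, Acadvl and Acaa2. Ppp2r2a, Gm3716, Eci1 and Mrpl48 were called in all 13 leave-outs. For every other gene below, the log2 fold change is the measurement, and its call ended in at least 1 leave-out.

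**Figure D2:**
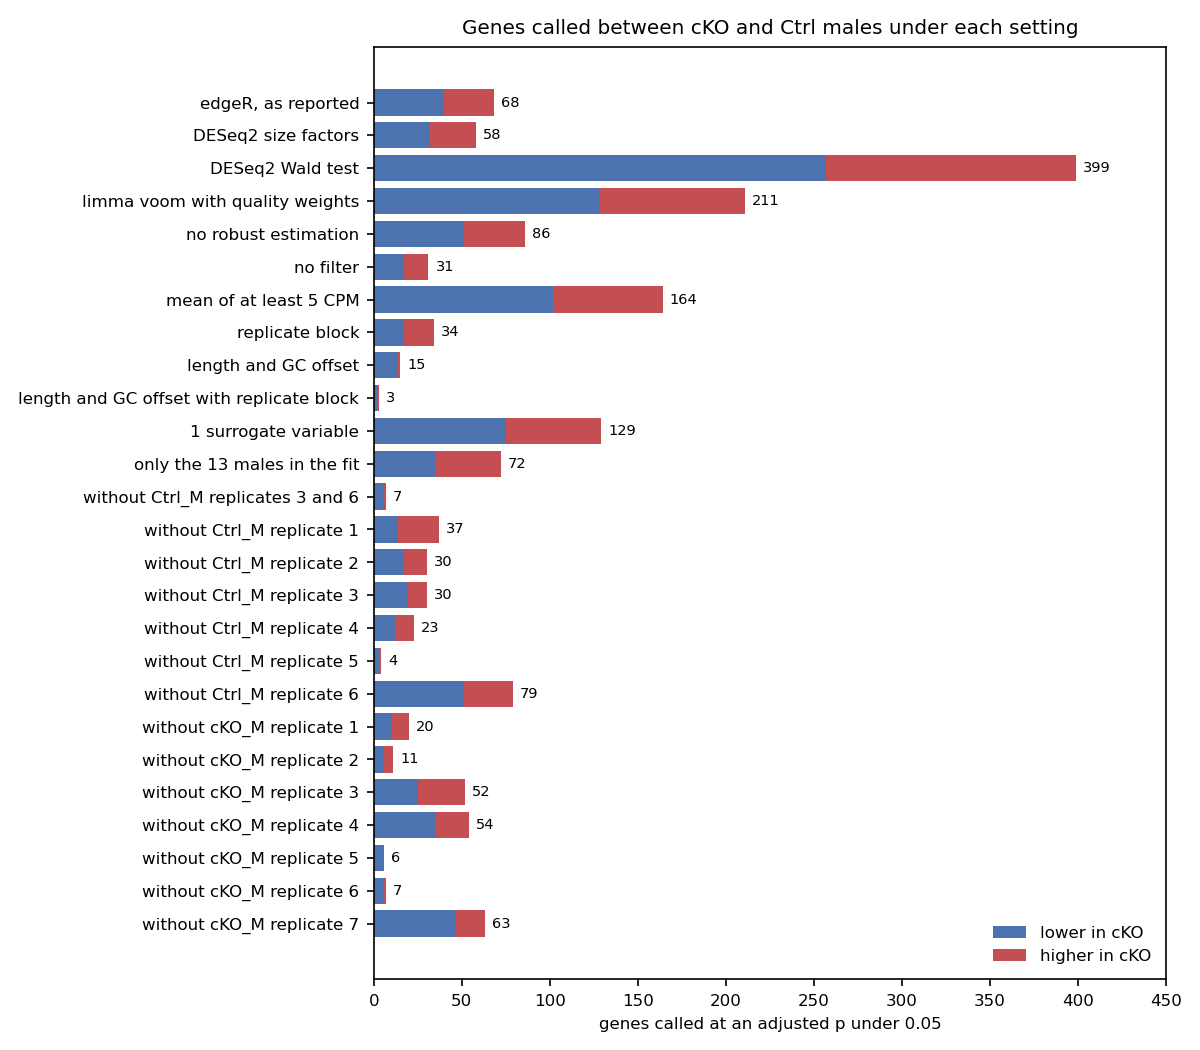
Bars give the number of genes called lower (blue) and higher (red) in cKO males, from the analysis as reported at the top through each alternative analysis to the 13 leave-outs, with the total printed beside each bar. The total is 68 as reported, 399 with the DESeq2 Wald test and 4 without Ctrl male 5.

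Gene length moved with the genotype contrast. Over all genes tested that had a length, the log2 fold change ran with the length of the longest annotated transcript, from a median of -0.06 in the shortest of 10 equal bins of genes to 0.08 in the longest. Most called genes had lengths on the matching side: 23 of the 28 higher were longer than the median gene tested, and 32 of the 40 lower were shorter. The 28 higher genes had a median length of 6093 bases and the 40 lower genes 1577 bases, against 3192 bases over all genes tested. The mean level of the longest bin minus that of the shortest, on the log2 scale, ran from -0.14 to 0.05 in the Ctrl libraries and from 0.01 to 0.10 in the cKO libraries, so the groups overlapped. With an offset for length and GC content in each library, 15 genes were called, 1 higher and 14 lower, and 58 of the 68 calls were lost. The 10 that stayed were Ppp2r2a, Gm3716, Eci1, Mrpl48, Sdhb, Cbr4, Phpt1, Tnni3, Dnajc15 and Ndufb9, of which Gm3716 alone is higher. The part that length has in the other results was not tested.

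**Figure D3:**
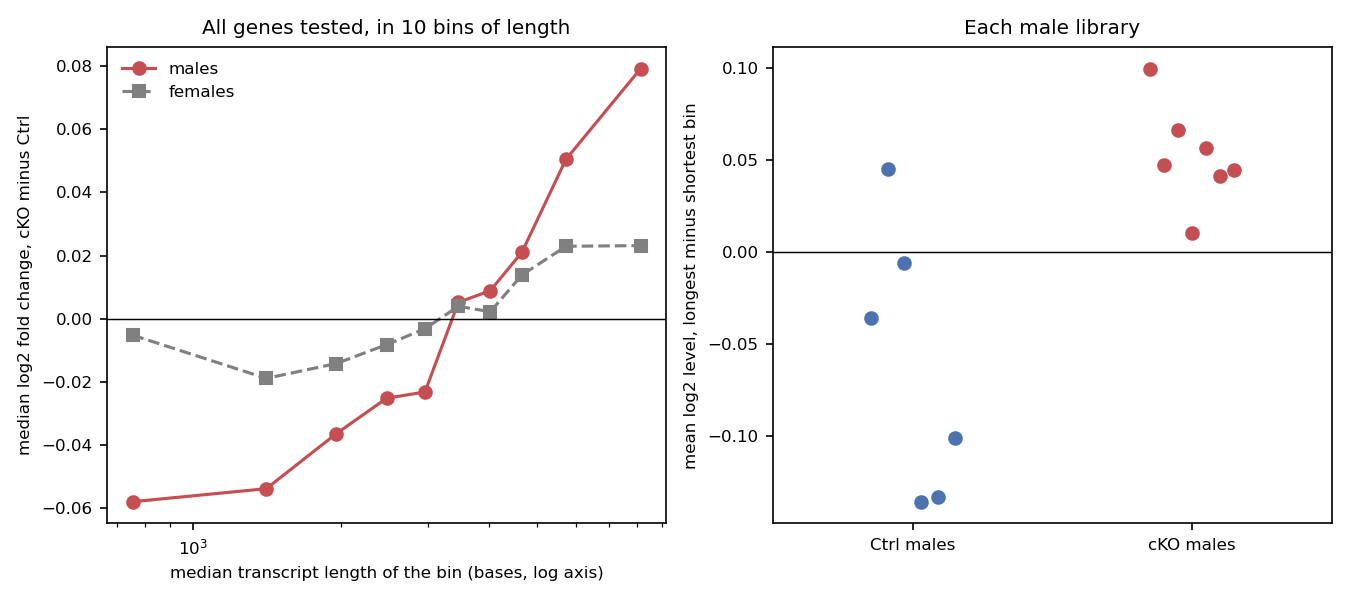
Left: median log2 fold change (cKO minus Ctrl) of genes in 10 bins of transcript length, in males (red) and females (grey), on a log axis of length. Right: for each male library (points), the mean log2 level of the longest bin of genes minus that of the shortest, which reaches down to -0.14 in Ctrl and is above 0 in all 7 cKO males.

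Genes of fatty acid oxidation were among the lower calls. Eci1 is the mitochondrial enoyl-CoA isomerase that lets unsaturated fatty acids enter β-oxidation. It was read at 289.7, 328.8 and 381.7 CPM in the Ctrl males (lowest, median, highest) and at 238.2, 249.9 and 295.5 CPM in the cKO males. In 6 of the 7 cKO males it was below every Ctrl male, and the seventh, cKO 4, was inside the Ctrl range. The log2 fold change was -0.35, with an SE of 0.05 and an adjusted p of 0.00314 in edgeR. Acadvl, the dehydrogenase that opens the cycle for very long chains, fell from 998 ± 88.7 to 836 ± 32.4 CPM (SD, n = 6 and 7), or by 0.26 on the log2 scale. Acaa2, the thiolase that closes the cycle in mitochondria, fell by 0.31 on the log2 scale. Cbr4, a carbonyl reductase known for its part in mitochondrial fatty acid synthesis, fell by 0.25. Of the 32 tested genes of fatty acid uptake and oxidation, these 3, Eci1, Acadvl and Acaa2, were called, 31 had a lower and 1 a higher value in cKO, and the median was -0.17. In females the list's median was -0.08.

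Subunits of the respiratory chain fell alongside. Sdhb, the iron-sulfur subunit of succinate dehydrogenase (complex II), was read at 843.1, 872.1 and 938.0 CPM in the Ctrl males and at 671.4, 726.6 and 796.8 CPM in the cKO males. All 7 cKO males were below all 6 Ctrl males. Its log2 fold change was -0.26, with an SE of 0.05 and an adjusted p of 0.0132 in edgeR. Atp5o, the stalk subunit of ATP synthase also called OSCP, was read at 777.1, 813.0 and 866.3 CPM in the Ctrl males and at 665.6, 694.2 and 734.2 CPM in the cKO males, again with no overlap. Its log2 fold change was -0.22, with an SE of 0.04 and an adjusted p of 0.0238 in edgeR. The other called subunits were Sdhd, the membrane anchor of complex II (-0.19), the complex I subunits Ndufa9 (-0.18), Ndufb9 (-0.21) and Ndufb10 (-0.21), and the rotor subunit Atp5c1 (-0.20). Cycs, cytochrome c, which carries electrons from complex III to complex IV, fell by 0.25 on the log2 scale, and its reads can be shared with its many pseudogenes.

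The subunits that were not called had lower values too. All 40 tested nuclear genes of complexes I and II and all 37 of complexes III to V had lower values in cKO, with medians of -0.15 and -0.15. Calls numbered 5 and 3 in these lists. As a median over the 40 genes, relative to the Ctrl mean, complexes I and II lay between -0.07 and 0.09 in the Ctrl males. In the cKO males they lay between -0.22 and -0.09, so that no cKO male reached a Ctrl male. Complexes III to V were apart in the same way, as were the proteasome and mechanosensor lists below. The groups overlapped for fatty acid oxidation, the citric acid cycle, mitochondrial ribosomes, and assembly and import. Without Ctrl males 3 and 6 the list's median was -0.18, and under the length and GC offset it was -0.14, with 2 genes called. The medians of females were -0.07 and -0.07.

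In males, genes of mitochondrial DNA did not share that direction. Of the 13 protein genes that mitochondria encode themselves, 0 were called, and 10 had a higher and 3 a lower value in cKO. The median was 0.15, against -0.08 in females, where the sign was that of the nuclear lists. The range over mice was wide, from -0.41 to 0.26 in the Ctrl and from -0.07 to 0.32 in the cKO males as list medians relative to the Ctrl mean. The member of smallest p, mt-Nd6, was read at 78.9 ± 13.1 CPM in Ctrl and 97.2 ± 15.8 in cKO (SD, n = 6 and 7), with an edgeR adjusted p of 0.543.

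The machinery that translates mitochondrial messages held Mrpl48, 1 of the 4 genes called in every leave-out. Mrpl48 is a protein of the large mitochondrial ribosomal subunit. It was read at 38.2, 40.0 and 43.5 CPM in the Ctrl males and at 30.3, 33.3 and 35.9 CPM in the cKO males. The groups did not overlap, and the log2 fold change was -0.28, with an SE of 0.05 and an adjusted p of 0.00515 in edgeR. Mrps34 (-0.23), Mrps16 (-0.22) and Mrpl51 (-0.19), further proteins of this ribosome, were called lower as well. In the whole list of 83 such genes, 81 had lower values and 4 were called, with a median of -0.13. Outside this list, Farsb, a subunit of the cytosolic phenylalanyl-tRNA synthetase, changed by -0.24 on the log2 scale and Fars2, its mitochondrial counterpart, by -0.20. Aurkaip1, which is also part of the small mitochondrial ribosomal subunit, fell by 0.18, and Mterf2, a mitochondrial transcription termination factor family member, by 0.29.

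Other proteins of the organelle completed the group. Mtch2, an insertase of the outer membrane, fell from 142 ± 3.76 to 127 ± 3.89 CPM (SD, n = 6 and 7; log2 fold change -0.17). Slc25a4, the adenine nucleotide carrier that exports ATP, was among the most abundant called genes and fell from 5829.9 ± 206 to 5146.3 ± 243 CPM. Dnajc15, a co-chaperone of the import motor (-0.20), Gstk1, a glutathione transferase of mitochondria and peroxisomes (-0.33), and Fam162a (-0.21) were called lower too. The citric acid cycle list had 0 of 27 genes called at a median of -0.13, with Sucla2 nearest at an adjusted p of 0.0506. Assembly and import factors had 0 of 80 called at a median of -0.11. The 22 regulators of mitochondrial genes, among them the PGC-1 and estrogen-related receptor genes, had 0 called and a median of 0.00. With the 6 lists of nuclear genes pooled, 287 of 299 tested genes had lower values, 15 were called lower and 0 higher, and the median was -0.13 against -0.07 in females.

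**Figure D4:**
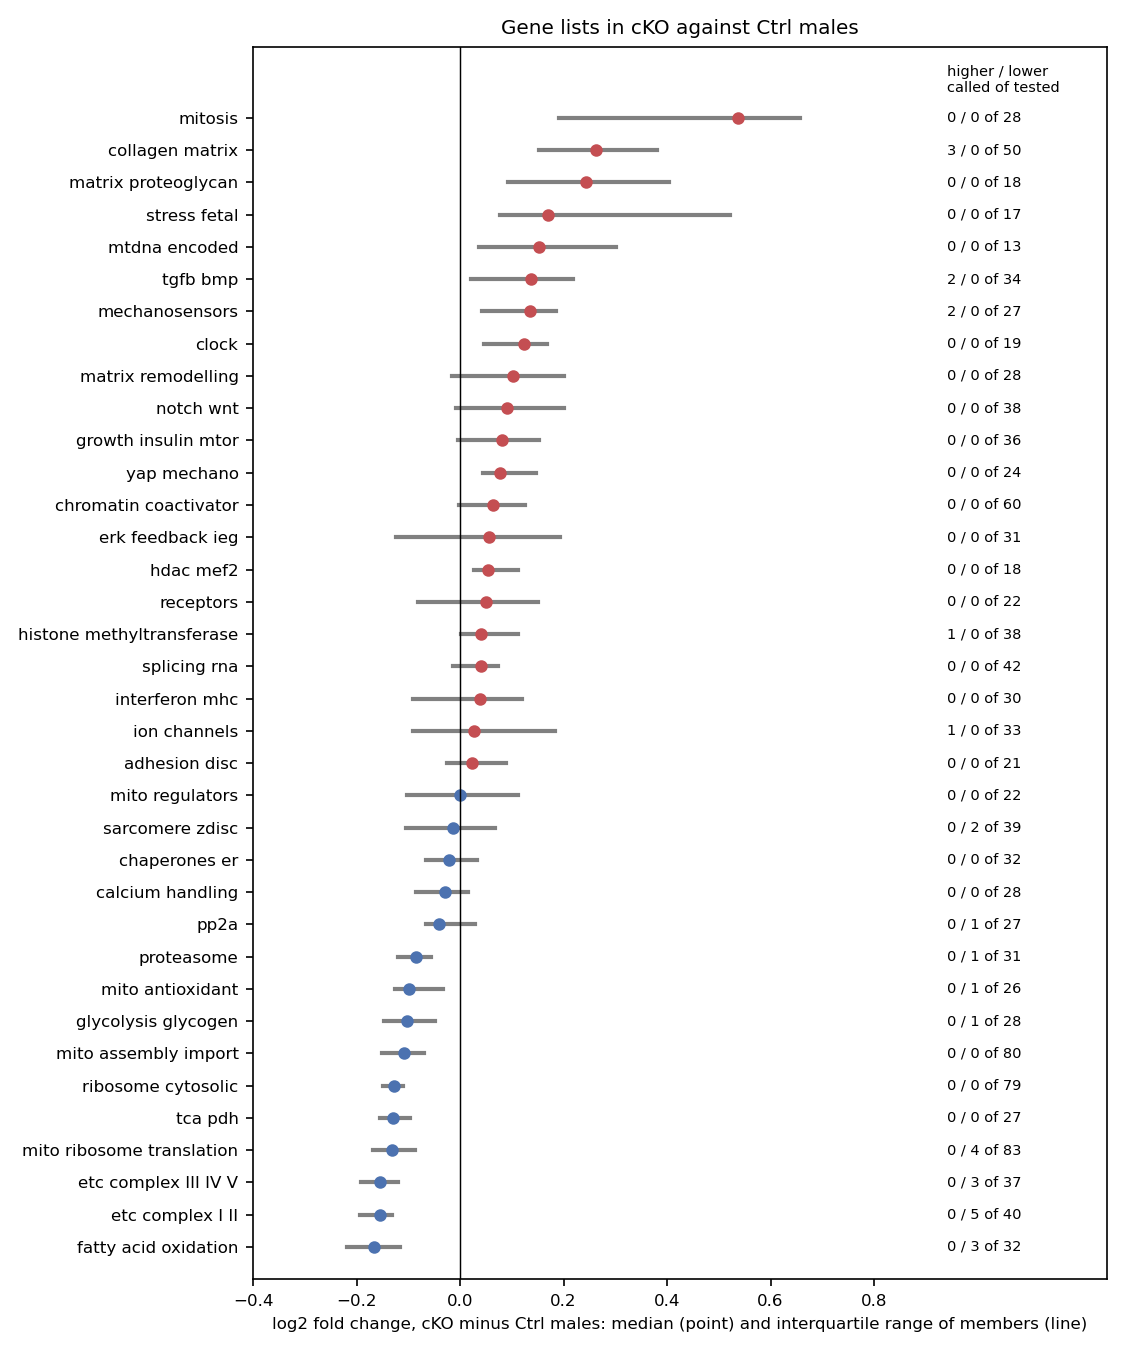
For each of 36 gene lists, the point is the median log2 fold change (cKO minus Ctrl males) of its tested members, the line is their interquartile range, and the numbers give members called higher and lower of those tested. The 6 lists of nuclear mitochondrial genes lie between -0.17 and -0.11, as does that of cytosolic ribosomal genes, and the mitosis, collagen and proteoglycan lists have the highest medians.

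The 6 lists of nuclear mitochondrial genes kept a lower median in all 25 alternative analyses and leave-outs, whereas the list of mitochondrial DNA kept a higher one. Heart muscle markers moved with this group: their summed level was 99464 to 107191 CPM in the Ctrl and 85244 to 100489 CPM in the cKO males, with 12 of 12 markers detected, and its part in the result was not tested. In tissue RNA, fewer cells of a type and less RNA per cell cannot be told apart.

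The DNA around the starts of called genes was read for known elements. Promoters of 300 bases, 250 before and 50 after the annotated start, were taken from RefSeq on GRCm38.p6, which held 57 of the 68 called genes (33 lower with 41 promoters, 24 higher with 31). They were searched on both strands for letters of elements that are known from genes of the respiratory chain: CCGGAAG for ETS factors, GCGCATG for part of the NRF1 element, AGATGGC for part of the YY1 element and AAGGTCA for part of the nuclear receptor element. Shown are Eci1 (chr17:24426433-24426732, plus strand), Sdhb (chr4:140961021-140961320, plus strand), Cycs (chr6:50566520-50566819, minus strand) and Mrps16 (chr14:20393441-20393740, minus strand), which stand for the mitochondrial roles above and were taken from the lower genes with a match. Capitals mark the matches, on either strand.
Eci1: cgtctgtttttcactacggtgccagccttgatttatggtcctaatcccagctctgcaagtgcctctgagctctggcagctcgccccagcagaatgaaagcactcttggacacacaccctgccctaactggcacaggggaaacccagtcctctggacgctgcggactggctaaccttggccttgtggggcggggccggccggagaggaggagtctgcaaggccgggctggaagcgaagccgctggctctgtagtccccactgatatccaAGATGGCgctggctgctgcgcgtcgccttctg
Sdhb: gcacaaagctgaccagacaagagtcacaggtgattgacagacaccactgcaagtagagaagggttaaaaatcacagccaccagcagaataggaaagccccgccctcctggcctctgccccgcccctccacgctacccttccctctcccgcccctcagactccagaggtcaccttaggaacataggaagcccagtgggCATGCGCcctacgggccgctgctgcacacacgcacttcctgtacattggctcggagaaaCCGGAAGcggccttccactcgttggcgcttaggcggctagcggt
Cycs: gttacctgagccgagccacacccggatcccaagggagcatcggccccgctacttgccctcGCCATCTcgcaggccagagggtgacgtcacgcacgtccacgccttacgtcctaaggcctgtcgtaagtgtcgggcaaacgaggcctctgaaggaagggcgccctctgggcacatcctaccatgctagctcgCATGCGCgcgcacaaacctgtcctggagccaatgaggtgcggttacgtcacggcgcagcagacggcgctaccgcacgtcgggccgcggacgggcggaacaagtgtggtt
Mrps16: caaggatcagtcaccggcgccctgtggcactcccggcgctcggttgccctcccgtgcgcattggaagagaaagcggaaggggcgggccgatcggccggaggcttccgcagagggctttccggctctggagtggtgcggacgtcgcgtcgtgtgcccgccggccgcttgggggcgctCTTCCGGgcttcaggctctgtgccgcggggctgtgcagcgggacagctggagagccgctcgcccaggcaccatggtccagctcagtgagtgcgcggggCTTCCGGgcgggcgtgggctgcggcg
In Eci1 the match is to the YY1 letters, in Sdhb to the NRF1 and then the ETS letters, in Cycs to the YY1 and then the NRF1 letters, and in Mrps16 to the ETS letters at 2 places.

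Across the matched genes, the ETS letters stood in 9 of 41 promoters of lower genes (22.0%), in 2 of 31 of higher genes (6.45%) and in 8.86% of all 32851 promoters. The NRF1 letters stood in 5 of the 41 (12.2%), in 0 of the 31 and in 3.91% of all. Shares for AGATGGC were 7.32%, 6.45% and 6.4%, and for AAGGTCA 7.32%, 0% and 4.72%. GGAATG, the letters of the TEAD element, stood in 14.6%, 6.45% and 14.7%. The 32851 promoters belong to 27025 genes, where 15357 genes were tested, so the background includes genes that could not be called. Shares among promoters of tested genes alone were not counted. The unit is the promoter, and a gene can have several: both promoters of Psmc2 held the ETS letters. These counts describe letters in a window and were not tested.

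Contractile and other heart muscle genes were among the lower calls. Tnni3, cardiac troponin I, fell from 4669.6 ± 244 to 3961.4 ± 148 CPM (SD, n = 6 and 7; log2 fold change -0.24), and Myl3, the ventricular essential light chain, fell by 0.20 on the log2 scale. Both were lower in every cKO than in every Ctrl male. They were the 2 called members of 39 sarcomere and Z-disc genes, whose median was -0.01 and crossed 0 in 1 of 25 alternatives, the replicate block. Fhl2, a LIM protein of the sarcomere that also acts in the nucleus, fell from 1513.3 ± 149 to 1138.7 ± 158 CPM (SD, n = 6 and 7), with 5 of 7 cKO males below all Ctrl males. That log2 fold change of -0.41 (SE 0.08; adjusted p = 0.0272 in edgeR) was the third largest drop among called genes. Itgb1bp2, known as melusin, which binds integrin β1 in muscle and takes part in the response to load, fell from 199 ± 13.8 to 166 ± 13.5 CPM (log2 fold change -0.26). Eno3, the muscle form of enolase, fell from 1856.0 ± 91.5 to 1548.5 ± 77.3 CPM (-0.26) and was the 1 called gene of 28 for glycolysis and glycogen. Of those 28 genes, 25 had lower and 3 higher values, at a median of -0.10, against -0.06 in females. Under the length and GC offset the median in males was -0.11.

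The remaining lower genes had varied roles. Psmc2, an ATPase of the proteasome cap (-0.19), was the 1 called of 31 proteasome genes, of which 29 had lower values. Fkbp4, a co-chaperone of HSP90 (-0.22), Urod, an enzyme of heme synthesis (-0.16), Pop5, a subunit of RNase P and MRP (-0.27), Phpt1, a phosphohistidine phosphatase (-0.35), Sap18, a protein of histone deacetylase and splicing complexes (-0.17), Apmap (-0.23) and Cmss1 (-0.38) were called as well. Of 79 cytosolic ribosomal protein genes, 0 were called, 76 had lower values and the median was -0.13, against 0.03 in females. Gm44037, a noncoding RNA, had 26, 32, 22, 34, 26 and 19 counts in the Ctrl males and 13, 10, 14, 14, 13, 11 and 10 in the cKO males. No cKO male reached the Ctrl range, and the log2 fold change was -0.98, with an SE of 0.21 and an adjusted p of 0.0316 in edgeR.

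Proteins of the extracellular matrix were among the higher genes. Hspg2, perlecan of the basement membrane, rose from 544.6 ± 32.2 to 672.7 ± 43.7 CPM (SD, n = 6 and 7; log2 fold change 0.30), with no overlap between the groups. Fn1, fibronectin, was read at 32.3, 38.1 and 45.9 CPM in the Ctrl males and at 43.2, 58.8 and 65.2 CPM in the cKO males. In 6 of 7 cKO males it was above all Ctrl males, and the log2 fold change was 0.53, with an SE of 0.12 and an adjusted p of 0.0397 in edgeR. Col14a1, a collagen that associates with fibrils, was read at 7.78, 8.96 and 10.8 CPM in the Ctrl males and at 10.8, 14.4 and 19.5 CPM in the cKO males. The lowest cKO male was just above the highest Ctrl male (10.83 against 10.79 CPM), and the log2 fold change was 0.74, with an SE of 0.16 and an adjusted p of 0.0384 in edgeR.

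Binding proteins that hold latent TGF-β in the matrix formed the second matrix group. Ltbp3 was read at 43.6, 46.2 and 50.6 CPM in the Ctrl males and at 48.5, 55.5 and 65.8 CPM in the cKO males. Only cKO 3 lay inside the Ctrl range, and the log2 fold change was 0.28, with an SE of 0.06 and an adjusted p of 0.0272 in edgeR. Ltbp4 rose from 367 ± 25.7 to 482 ± 31.6 CPM (SD, n = 6 and 7; log2 fold change 0.39), with the groups apart. Of 34 tested genes of TGF-β and BMP signalling, these 2 were called and 30 had higher values, at a median of 0.14. In the collagen and matrix glycoprotein list, 47 of 50 had higher values, 3 were called (Hspg2, Col14a1 and Fn1) and the median was 0.26, against 0.05 in females. The proteoglycan list had 0 of 18 called at a median of 0.24, with Bgn, biglycan, nearest (log2 fold change 0.47, edgeR adjusted p = 0.0505). Remodelling enzymes had 0 of 28 called at a median of 0.10.

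Over these 4 matrix lists together, 113 of 130 tested genes had higher values, 5 were called higher and 0 lower, and the median was 0.19, against 0.06 in females. As list medians relative to the Ctrl mean, the Ctrl males lay between -0.10 and 0.16 and the cKO males between 0.08 and 0.25, and so overlapped. Fibroblast markers moved the same way. Their summed level was 2229 to 3047 CPM in the Ctrl and 2556 to 3077 CPM in the cKO males, with 12 of 12 passing the filter. For markers of activated fibroblasts it was 105 to 161 and 115 to 199 CPM, with 9 of 10 passing the filter. Of the 12 fibroblast markers, 5 are also in the matrix lists, as are 3 of the 9 tested activated fibroblast markers. Markers of valve and cartilage cells, with 5 of 7 passing the filter, summed to 11.4 to 17.4 CPM in the Ctrl and 14.99 to 23.41 CPM in the cKO males. Comp is in this list and in that of activated fibroblasts, so the 2 sums are not independent. The part of these cells in the result was not tested. Under the length and GC offset the medians were 0.16 for collagens, 0.23 for proteoglycans, 0.03 for remodelling enzymes and 0.10 for TGF-β, with 0 genes called. Hspg2 then changed by 0.16 on the log2 scale (adjusted p = 0.239 in edgeR), and Ltbp3 by 0.20, or by 0.16 where the offset was joined to the replicate block. Under the offset alone Ltbp4 changed by 0.31, Fn1 by 0.44 and Col14a1 by 0.68.

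Surface proteins that link cells to the matrix and sense load were called in the same direction. Pkd1, polycystin 1, a large membrane protein that couples to calcium signalling, was read at 67.9, 74.0 and 78.8 CPM in the Ctrl males and at 84.1, 90.5 and 99.3 CPM in the cKO males. All cKO males were above all Ctrl males, and the log2 fold change was 0.31, with an SE of 0.06 and an adjusted p of 0.0272 in edgeR. Itgav, the integrin subunit αV, a receptor for fibronectin and latent TGF-β, rose by a log2 fold change of 0.30, also without overlap. They were the 2 called of 27 mechanosensor genes, 24 of which had higher values (median 0.14). Under the length and GC offset the list's median was 0.03, with 19 higher values and 0 called, and the log2 fold change of Pkd1 itself was 0.18 (adjusted p = 0.181 in edgeR). The 24 targets of YAP and TEAD had 0 called and a median of 0.08, or 0.04 under that offset. Fndc3b, a membrane protein with fibronectin domains, rose from 40.2 ± 3.53 to 50.2 ± 3.47 CPM (SD, n = 6 and 7; 0.32). Diaph2, a formin that builds actin filaments (0.35), Rtn4, a membrane-shaping protein of the endoplasmic reticulum (0.25), and Klc1, a light chain of the motor kinesin (0.18), were called higher too.

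**Figure D5:**
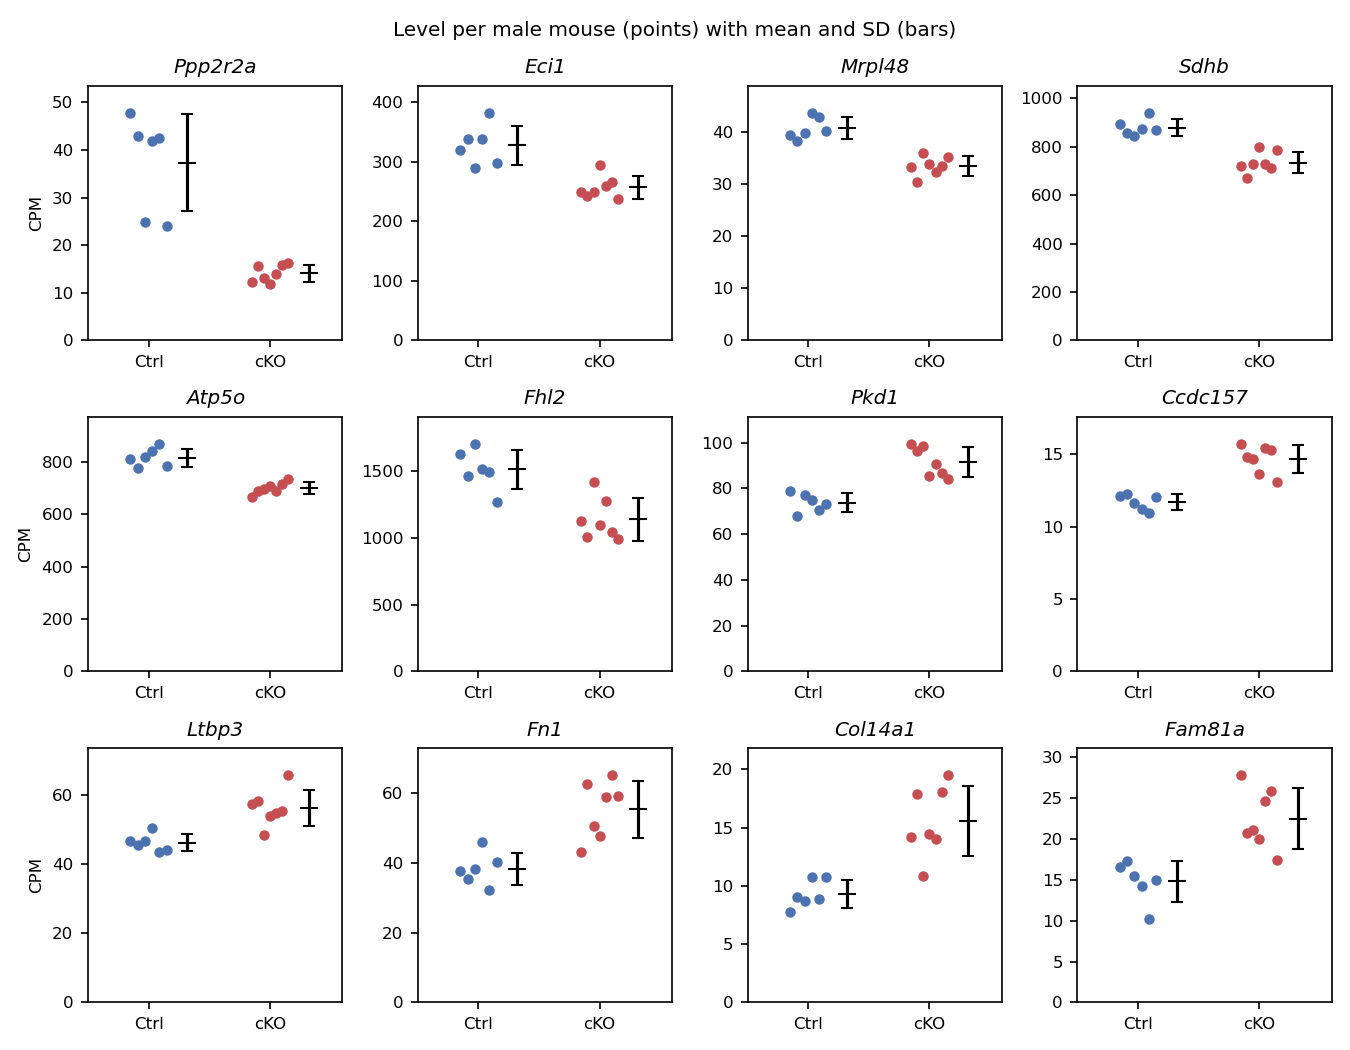
CPM of 12 called genes in each male mouse (points, blue for 6 Ctrl and red for 7 cKO), with the mean and SD of the group beside them; each axis starts at 0. Lower genes are Ppp2r2a to Fhl2 and higher genes Pkd1 to Fam81a, and in Ppp2r2a 2 Ctrl males lie at 24.1 and 24.9 CPM.

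Some of the other higher genes act in transcription, and the lists of chromatin genes below held 1 call. Kmt2d, which methylates histone H3 at enhancers, was read at 75.1, 81.6 and 88.0 CPM in the Ctrl males and at 94.0, 100.6 and 119.7 CPM in the cKO males. The groups did not overlap, and the log2 fold change was 0.32, with an SE of 0.06 and an adjusted p of 0.0272 in edgeR. Under the length and GC offset it changed by 0.18 (adjusted p = 0.24 in edgeR). It was the 1 called of 38 histone methyltransferase genes, whose median of 0.04 became -0.02 under the length and GC offset. Polr2a, the largest subunit of RNA polymerase II (0.29), Cic, a repressor released by ERK signalling (0.21, and 0.10 under that offset), Tcf7l1, a factor of the Wnt pathway (0.32), Creb3l2, a membrane-bound factor of the secretory pathway (0.27), and Tulp4 (0.32) were called higher. Of 60 chromatin coactivator and corepressor genes 0 were called, and the median of 0.06 became -0.01 under that offset.

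Signalling proteins and less known genes completed the rise. Pdzrn3, a ubiquitin ligase of muscle and vessels, rose from 22.2 ± 2.15 to 29.7 ± 3.19 CPM (SD, n = 6 and 7; log2 fold change 0.42). Fam81a was read at 10.1, 15.2 and 17.3 CPM in the Ctrl males and at 17.4, 21.1 and 27.8 CPM in the cKO males. Its groups touched without overlap, and the log2 fold change was 0.60, with an SE of 0.13 and an adjusted p of 0.0316 in edgeR. Ccdc157 was read at 10.9, 11.9 and 12.3 CPM in the Ctrl males and at 13.1, 14.8 and 15.7 CPM in the cKO males. It did not overlap between groups and changed by 0.32 (SE 0.06, edgeR adjusted p = 0.0272). Plcg2, a phospholipase C of immune cells above all (0.36), Mfsd6 (0.23) and Atrnl1 (0.32) were also called.

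The largest fold changes belonged to messages near the limit of detection. Gm3716, a noncoding RNA of chromosome 5, had 3, 1, 1, 1, 0 and 0 counts in the Ctrl males and 19, 26, 20, 22, 26, 14 and 22 in the cKO males (edgeR adjusted p = 2.63e-06). Every Ctrl male was at or under 3 counts, so no fold is given. Cracd, a regulator of actin capping on the same chromosome with 61 tested genes between the 2 in GENCODE M21, had 5, 5, 3, 13, 4 and 14 counts in the Ctrl males and 32, 19, 18, 29, 33, 21 and 31 in the cKO males. In CPM its groups did not overlap, and the log2 fold change was 1.95, with an SE of 0.44 and an adjusted p of 0.0405 in edgeR. In females, Gm3716 was called higher as well (edgeR adjusted p = 5.18e-05), while Cracd changed by 0.28 on the log2 scale (edgeR adjusted p = 0.986). The difference between the sexes was not called for either gene. The distance of either gene from the transgene or from FVB sequence is not given in the sources used here.

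Pacsin1 and Nrg2 were rare as well. Pacsin1, a membrane-bending protein of endocytosis in neurons above all, had 27, 13, 22, 30, 19 and 9 counts in the Ctrl males and 33, 61, 17, 39, 49, 42 and 99 in the cKO males. In CPM, cKO 3 lay inside the Ctrl range while the other 6 were above it, and the log2 fold change was 1.41, with an SE of 0.30 and an adjusted p of 0.0316 in edgeR. Nrg2, a neuregulin that signals through ERBB receptors, had 21, 13, 21, 31, 14 and 15 counts in the Ctrl males and 40, 26, 44, 49, 39, 26 and 25 in the cKO males. Counts overlapped, CPM did not, and the log2 fold change was 1.06, with an SE of 0.23 and an adjusted p of 0.0316 in edgeR.

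The subunits and partners of PP2A gave no second call. Of 27 tested genes, Ppp2r2a alone was called, 17 had lower values and the median was -0.04. Ppp2ca, the main catalytic subunit, was read at 219 ± 12.8 CPM in Ctrl and 214 ± 11.5 in cKO (SD, n = 6 and 7; log2 fold change -0.03, SE 0.05, edgeR adjusted p = 0.843). Ppp2r2d, the B55δ gene, was read at 36.8 ± 1.32 and 37.7 ± 1.88 CPM (log2 fold change 0.04, SE 0.06, edgeR adjusted p = 0.848). Nearest to the threshold after Ppp2r2a was Tiprl, which binds free catalytic subunits, at -0.19 (SE 0.05, edgeR adjusted p = 0.0953).

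Genes of mitosis, the process in which B55α is best known, had 0 of 28 tested members called. Their median of 0.54 was nevertheless the highest of the 36 lists, with 26 higher and 2 lower values. Birc5 (0.956 ± 0.23 and 1.52 ± 0.378 CPM) and Cdc20 (1.42 ± 0.213 and 2.25 ± 0.504 CPM, SD, n = 6 and 7 for both) were read at low levels. Their group means lay above the limit of detection, which was 0.0972 to 0.173 CPM over the male libraries. How many members of the list were as low was not counted. The member of smallest p was Ccnd2, cyclin D2, which is a cyclin of G1 and not of mitosis. It was read at 111 ± 14.3 CPM in Ctrl and 141 ± 13.4 in cKO (log2 fold change 0.34, SE 0.10, edgeR adjusted p = 0.102). List medians relative to the Ctrl mean ran from -0.25 to 0.30 in the Ctrl and from 0.06 to 0.64 in the cKO males, an overlap. The median in females was -0.20, and the median in males ran from 0.12 to 0.59 over the alternatives. Clock genes also had 0 of 19 called, at a median of 0.12, with Per2 nearest (log2 fold change 0.41, edgeR adjusted p = 0.13). Stress and fetal genes of the heart had 0 of 17 called at a median of 0.17, with Uchl1 nearest (0.48, edgeR adjusted p = 0.0813).

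The difference of the genotype effect between males and females was tested in the same model. Of 15357 genes, 0 passed in edgeR (0%), 0 with DESeq2 and 0 with voom, and the smallest edgeR adjusted p was 0.707. An unadjusted edgeR p under 0.05 was found for 608 genes, where about 1 in 20 would have one if no gene differed. No gene above is therefore shown to respond differently in males. Of the 68 genes, 64 had the same sign in females, 26 of the 28 higher and 38 of the 40 lower. Their medians in females were 0.14 and -0.09, beside 0.32 and -0.23 in males, the sex in which they were chosen. The share of same signs over all genes tested was not counted. Log2 fold changes ran with transcript length in both sexes (Spearman correlation 0.25 in males and 0.10 in females), and the part of length in these shared signs was not tested. In females 5 genes were called (0.0326%). Ppp2r2a fell by 1.58 on the log2 scale in females and by 1.40 in males (difference 0.18, SE 0.19).

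Several of the called genes share exons with another annotated gene, so their counts are less certain. In GENCODE M21, 26 of the 68 do so, 22 of them with a gene on the other strand, among them Mrpl48 (with Rab6a), Pkd1 (Tsc2), Ccdc157 (Rnf215), Acadvl (Dvl2) and Fn1 (Apol7d). On the same strand 7 do so, namely Phpt1, Tnni3, Mrps34, Atp5o, Ndufb9, Mrpl51 and Sap18. The share over all genes tested was not counted. The libraries were stranded, and the use of strand in counting is not given in the sources used here. Of the 68 genes, 66 code for proteins, 30 are in at least 1 of the 36 lists and 38 are in none.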

How the data were processed

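Stranded poly-A libraries were made from 500 ng of left ventricle RNA of 26 mice (integrity number 7.7 or more), per the labels' protocols. The authors deposited 1 matrix of raw counts per gene, 56941 genes by 26 samples, with no normalization. The submitters' processing notes name FastQC 0.74, cutadapt 4.6, STAR 2.7.11a, HTSeq and the build GRCm39. Annotation release and strand setting are not given in the sources used here. Paralogs and overlapping genes can have lost reads in such counting.

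In R 4.3.3, edgeR 4.0.16 dropped low genes (filterByExpr, minimum count 10), scaled libraries by TMM and fitted a mean for each of the 4 groups with robust quasi-likelihood F tests. The Benjamini-Hochberg adjustment ran over 15357 genes, and calls are at an adjusted p under 0.05. SE is the fold change over the root of its F. The permutation test used scipy 1.17.1. Counts of 3 or fewer are taken as not detected. Promoters and transcript lengths came from RefSeq and GENCODE M21 on GRCm38.p6, by name or ID only, and lengths matched 98.3% of genes tested.

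Named with statistics are Ppp2r2a and the 12 higher and 12 lower called genes of smallest p, with values by mouse for the first 4 each way and for changes of at least 0.5. Of the genes this rule selects, some are not reported here. Other called genes, and the gene of smallest p in a list, are named with their values. Ppp2ca, Ppp2r2d, Birc5, Cdc20 and Tiprl were picked with their values in view. The comparison, the gene lists and the rules were chosen with earlier results of these data known. The methods were tested on simulated data. Alternatives were other scalings (DESeq2 1.42.0 size factors), tests (DESeq2, limma 3.58.1 voom), filters, a replicate block, a length and GC offset, a surrogate variable (sva 3.50.0), fewer groups in the fit, and leave-outs. Counts of the 36 pairs of male libraries within groups differed by 8.9 to 36.4 chi-square per degree of freedom, so none is a duplicate. Each library is labelled as a separate mouse.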

Additional observations from a re-analysis of the deposited data

Results flagged for a closer look

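Of 98 groups of values checked for a mouse apart from its group, 5 had one, and chance gives about 1 in 20. Kmt2d was highest in cKO male 3 at 120 CPM, with the other cKO males at 94.0 to 104.8 CPM. The share of counts from mitochondrial DNA was lowest in cKO male 1 at 16.6%, with the others at 18.02% to 18.94%. In Ctrl male 4 the summed lymphatic markers were highest at 138 CPM (others 122.1 to 126.1 CPM), as were the mesothelial markers at 13.3 CPM (others 10.1 to 11.04 CPM). Skeletal muscle markers summed to 5180 CPM in Ctrl male 2, with the other Ctrl males at 3899 to 4300.0 CPM. The call of Kmt2d held without cKO male 3.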

How the results depend on the processing

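Ppp2r2a was called in all 12 alternatives and 13 leave-outs, at log2 fold changes from -1.63 to -1.32, and no called gene or count reversed. Medians near 0 did turn sign: for histone methyltransferase and coactivator genes under the length and GC offset, with or without the block, for sarcomere genes under the replicate block, and for regulators of mitochondrial genes in 13 of 25 alternatives and leave-outs. The 68 calls became 399 with the DESeq2 Wald test, 211 with voom, 164 at a mean of at least 5 CPM, 129 with a surrogate variable, 31 with no filter, 15 with the length and GC offset and 7 without Ctrl males 3 and 6. They ranged from 4 to 79 over the leave-outs. The share of lower genes was 58.8%, and 93.3% with the offset, 85.7% without Ctrl males 3 and 6, 50% with the replicate block, 48.6% with only the males in the fit and 37.8% without Ctrl male 1. DESeq2 size factors gave 58 calls, no robust estimation 86 and only the males in the fit 72, of which 41 were among the 68. The difference between males and females had 0 calls in every alternative and leave-out in which it could be fitted. No pairing of the mice by the replicate numbers in the titles was seen, though 6 pairs cannot exclude one. Same-numbered Ctrl and cKO males had a mean correlation of -0.03 (from -0.16 to 0.09, 6 pairs), and 1 of 6 Ctrl males correlated best with its own number. With the number as a replicate block, 34 genes were called, 19 of them among the 68, and with the block and the offset together 3 were. The cause of these shifts was not tested. In the smallest male library, of 17372414 counts, 3 counts are 0.173 CPM, which limits what can be said of Gm3716 and Cracd.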
